A study of Drosophila melanogaster with 48 samples.

Results

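Drosomycin (Drs), metchnikowin (Mtk) and defensin (Def) are 3 genes for small secreted antimicrobial peptides of Drosophila, and here their RNA was followed in 48 libraries of single fly brains. They were taken by gene symbol from a table of 16995 genes, with no cut on a measured value. Earlier results of these data were known when they were chosen. All 3 members had enough counts to be tested in every fit, which held 5015 genes in Tau-KO, 5477 in w1118 and 5821 over both strains.

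The libraries formed 16 groups of 3 brains each. In Tau-KO females, Tau-KO males, w1118 females and w1118 males there was a control group without injury and a group at 1, 2 and 4 hr after traumatic brain injury (TBI). Per the study's methods, which describe w1118, the flies were adult, mated and between 10 and 14 days old, and TBI was a single strike of the HIT device, in which a spring throws the vial of flies onto a pad. Every brain, control brains included, was kept for 2 hr under near-infrared light (NIR) of 750 nm at 100 mW/cm2, so the comparisons below separate injury but not NIR. The named times are those of dissection. The isolated brains lay in a dish of cold medium during the exposure, and RNA was taken after it. The levels therefore date from after the 2 hr of exposure and not from the named time itself. The sources used here do not give the allele behind the Tau-KO label, nor do they state whether Tau-KO flies were handled as w1118 flies were. The libraries were made by 3′ tag sequencing (QuantSeq), in which a transcript gives reads only near its 3′ end, so that levels of different genes can be set side by side without a correction for length.

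Flies answer microbes largely through peptides that the fat body, and to a lesser degree blood cells and epithelia, release into the hemolymph. A pair of signaling routes switches the peptide genes on. In the Toll route the ligand Spätzle binds the receptor Toll, and adaptors and a kinase then free the NF-kappaB factors Dorsal and Dif from their inhibitor Cactus, whereas in the Imd route peptidoglycan receptors such as PGRP-LC lead to cleavage of the NF-kappaB factor Relish. Drosomycin is a cysteine-rich antifungal peptide and the classical readout of Toll. Metchnikowin is a proline-rich peptide against fungi and Gram-positive bacteria that either route can induce. Defensin acts mainly on Gram-positive bacteria, and its gene responds to Imd with input from Toll. In the head, both glia and the fat body around the brain are able to make such peptides.

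All 3 genes are short and have a single exon in the BDGP6 annotation (release 6 of the genome), which is newer than the dm3 genome to which the authors aligned their reads. Drs (FBgn0283461) lies on chromosome arm 3L, plus strand, from 3369556 to 3369942, a transcript of 387 bases with an open reading frame of 70 codons. Mtk (FBgn0014865) lies on 2R, plus strand, from 15408846 to 15409113, with 268 bases and 52 codons, within an intron of Stacl on the same strand. Def (FBgn0010385) lies on 2R, minus strand, from 10054178 to 10054576, with 399 bases and 92 codons, within the span of magu, which runs on the opposite strand. In this annotation 0 exons of other genes overlap any of the members. Whether reads were counted by strand is not given in the sources used here.

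Counts assigned to genes ranged from 39517 to 1668925 per library (median 582952). Of the 48 libraries, 16 stood apart, meaning that even their nearest library differed from them by over 4 times what sampling alone would give (a chi-square value divided by its degrees of freedom), and 2 held fewer than 100000 counts: Tau-KO male control replicate 1 with 39517 and w1118 male 1 hr replicate 3 with 59781. In the other 32 libraries that value was 1.36 to 2.30, near what sampling alone would give. The nearest library was sought among all 48, across strains and sexes. Libraries of different strain and sex had the same nearest value, such as 1.39 for w1118 male 2 hr replicate 3 and Tau-KO female 1 hr replicate 3. The cause of this closeness was not tested. The label checks did not separate the groups. RNA of tau had a median of 143 CPM (the count of a gene per unit of library depth, with depth scaled by TMM) in the 24 libraries labelled Tau-KO and 152 CPM in the 24 of w1118, with a log2 difference of 0.10 in females and 0.05 in males (edgeR quasi-likelihood test, adjusted p = 1 and 0.997). In the Tau-KO libraries tau was 91.6 to 256 CPM. As the allele is not given, it is unknown whether the 3′ tag of tau lies within a deleted part. These values therefore neither check nor refute the label, and whether the labels are right was not tested. Every direction drawn between the strains below is one between libraries labelled so. The male dosage compensation RNA roX1 had medians of 910 CPM in libraries labelled female and 995 CPM in those labelled male. Its range was 53.3 to 1327 CPM in the former and 749 to 1590 CPM in the latter. The yolk protein gene Yp1 had medians of 1948 CPM in libraries labelled female and 1605 CPM in those labelled male. Its range was 447 to 13506 CPM in the former and 335 to 2263 CPM in the latter. The library w1118 female 2 hr replicate 2 had the highest Yp1. Its sum of tau, roX1 and roX2, 153 CPM, was the lowest of the series, and the 53.3 CPM of roX1 was its value. The next lowest sum was 908 CPM, in w1118 female 2 hr replicate 3. The roX1 median of libraries labelled female lay within the range of those labelled male, a level that the label female does not account for. Whether the sex labels are right was not tested. Female and male are used here as labels only, and comparisons of the sexes below are between libraries labelled so.

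Drs was the most abundant of the members, with 16 to 773 counts per library and a median of 435 CPM (range 154 to 829 CPM, n = 48). Mtk followed with a median of 195 CPM (45.1 to 550 CPM), and Def was rare, with a median of 8.46 CPM (0 to 243 CPM). This order held nearly throughout: Drs was above Mtk in 48 of 48 libraries and Mtk above Def in 46 of 48. The ratio of Drs to Mtk had a median of 2.36 and ran from 1.21 to 6.56. For Def the median library held only 4 reads, and 23 libraries held 3 or fewer. In 6 libraries Def had 0 counts, which allows up to 6.07 to 57.6 CPM (3 counts of the library, a limit that covers counting error only, since reads without molecular identifiers are not independent molecules). In brains taken whole, fewer cells of a type and less RNA per cell cannot be told apart for any of these levels.

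Drs and Mtk were steady and Def was not. Over all libraries the coefficient of variation was 27.2% for Drs, 38.6% for Mtk and 216% for Def. Within groups, the biological coefficient of variation (the spread between replicates beyond counting noise, from edgeR) was 0.260 for Drs, close to the median of 0.251 over 248 genes of similar level. For Mtk it was 0.316, against a median of 0.288 over 530 genes of similar level. For Def it was 0.967, against a median of 0.539 over 1428 genes of similar level, and 97.7% of the 5821 genes had a lower value. Drs lay between 300 and 600 CPM in 41 of 48 libraries and Mtk between 100 and 300 CPM in 43 of 48. Of the 638 Def counts in the series, 49.1% came from 3 libraries, whereas the 3 libraries with the most Drs and Mtk counts held 15.9% and 16.9% of those.

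**Figure D1:**
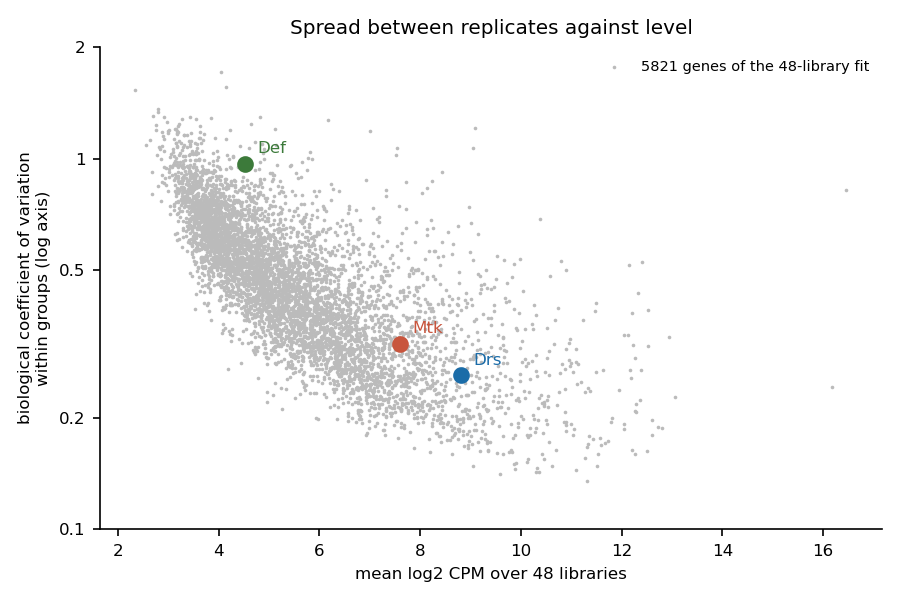
Biological coefficient of variation within groups (log axis) against the mean log2 CPM over 48 libraries, 1 grey point for each of 5821 genes, with Drs, Mtk and Def in color. Drs (0.260) and Mtk (0.316) lie within the cloud of genes of their level, and Def (0.967) lies near the upper edge of it.

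Each injured group was compared with its own control by edgeR's quasi-likelihood test, in 12 comparisons, and 10 further comparisons took the mean of the 3 injured groups, the difference of the response between sexes, the sexes and the strains. A gene was called at an adjusted p (Benjamini-Hochberg over all genes of the fit) under 0.05 with a change beyond 1 on the log2 scale in either direction. None of the 66 tests of a member gave a call with edgeR or with DESeq2. At an unadjusted p under 0.05 with the same fold limit, Def passed in 7 of 22 comparisons, Drs in 0 and Mtk in 0. The corresponding counts from DESeq2 were 8 for Def and 0 for Drs and Mtk. With no fold limit, Drs and Mtk each passed in 1 comparison by both tools. Comparisons at 1, 2 and 4 hr share the control brains of their sex and strain and are not independent of each other.

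**Figure D2:**
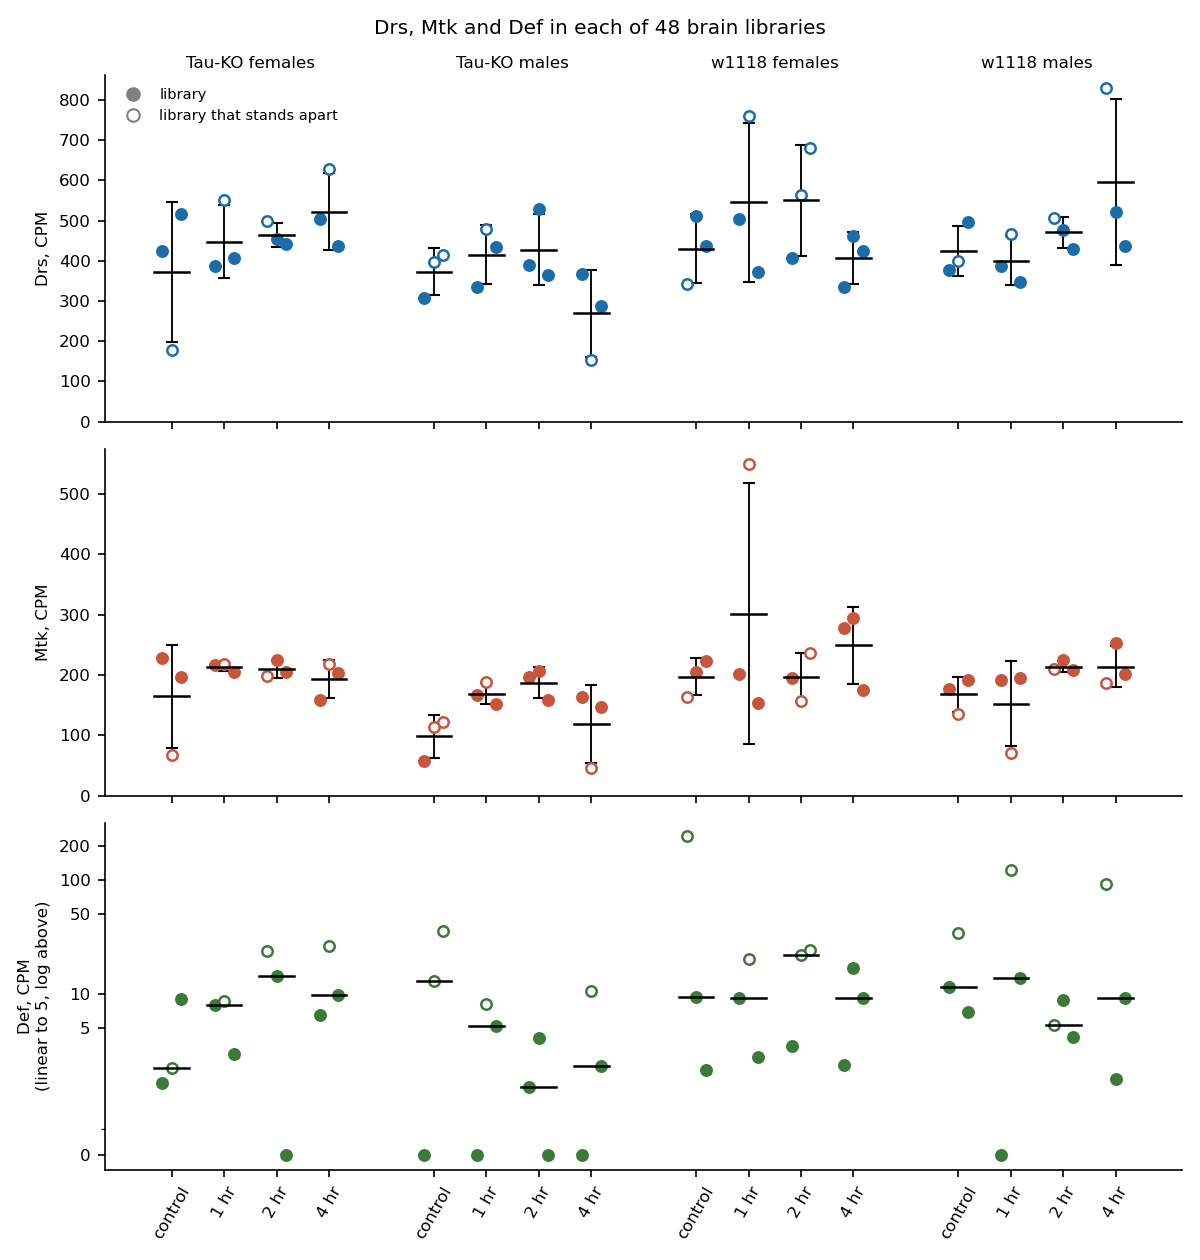
Level in CPM of Drs (top), Mtk (middle) and Def (bottom; axis linear to 5 CPM and logarithmic above) in each of 48 libraries by strain, sex and time. Points are libraries, open points are libraries that stand apart, bars are group means with SD for Drs and Mtk and medians for Def. Drs stays within 154 to 829 CPM and Mtk within 45.1 to 550 CPM, while single open points carry the highest Def values, 243 CPM in a w1118 female control among them.

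In Tau-KO females none of the members passed a threshold at any time after injury. The signs of Drs at 1 and 2 hr and of Mtk at 2 and 4 hr depended on 1 control brain. Drs was 424, 177 and 516 CPM in the controls, 386, 551 and 406 CPM at 1 hr, 499, 454 and 442 CPM at 2 hr and 504, 627 and 437 CPM at 4 hr. Its log2 fold changes were 0.28 ± 0.31, 0.31 ± 0.31 and 0.49 ± 0.31 (SE), and the groups overlapped at each time. Control replicate 2, which stands apart, was the low one with 177 CPM. Without it the values of Drs turned to -0.047 ± 0.29 at 1 hr and -0.0048 ± 0.29 at 2 hr, and the 4 hr value was 0.16 ± 0.29. Mtk was 229, 68.2 and 197 CPM in the controls, 216, 218 and 205 CPM at 1 hr, 199, 225 and 205 CPM at 2 hr and 159, 219 and 203 CPM at 4 hr. The same control brain was low for Mtk, control replicate 1 was above all injured brains, and the groups overlapped at each time. The log2 fold changes of Mtk were 0.37 ± 0.36, 0.34 ± 0.36 and 0.23 ± 0.36 at 1, 2 and 4 hr with all brains, against 0.024, -0.0057 and -0.12 without control replicate 2. Def was 2.82, 3.41 and 9.06 CPM in the controls, 7.99, 8.71 and 3.98 CPM at 1 hr, 24, 14.3 and 0 CPM at 2 hr and 6.52, 26.5 and 9.88 CPM at 4 hr. These Def values rest on 1, 1 and 7 reads in the controls, and the 4 hr log2 fold change of 1.35 ± 1.05 had a 95% interval of -0.81 to 3.52. With the adjusted rule 0% of the 5015 genes were called at each of the 3 times, and with the unadjusted rule 4.11, 4.03 and 2.21% of them at 1, 2 and 4 hr, against 0 of the 3 members.

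In Tau-KO males no member gave a call, Mtk had positive log2 fold changes at 1 and 2 hr, and Def had negative ones at every time. The Def values turned when the libraries that stand apart were left out, which leaves 1 shallow control without a read of Def. Mtk was 57.6, 115 and 123 CPM in the controls, 167, 188 and 153 CPM at 1 hr, 196, 207 and 158 CPM at 2 hr and 164, 45.1 and 148 CPM at 4 hr. At 1 and 2 hr every injured brain was above every control, as it was for 5.22 and 9.71% of the 5821 genes. The log2 fold changes of Mtk were 0.61 ± 0.37 at 1 hr (adjusted p = 1) and 0.74 ± 0.38 at 2 hr (adjusted p = 0.686). The control of 57.6 CPM is the library of 39517 counts and holds 3 reads of Mtk, and without it the values were 0.50 ± 0.39 and 0.63 ± 0.39. Both other controls stand apart from the rest of the libraries. At 4 hr the value of Mtk was 0.05 ± 0.40, and it turned to -0.0091 with DESeq2's size factors, to -0.019 with DESeq2, to -0.065 without the shallow control and to -0.22 without 4 hr replicate 1.

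Drs in Tau-KO males was 307, 397 and 415 CPM in the controls, 334, 479 and 434 CPM at 1 hr, 390, 528 and 364 CPM at 2 hr and 367, 154 and 288 CPM at 4 hr. The log2 fold change at 4 hr was -0.55 ± 0.33 (adjusted p = 0.306), and it was -0.25 ± 0.34 without 4 hr replicate 2. That library, which stands apart, had the lowest Drs and the lowest Mtk of all 48. Counts assigned to genes were 134970, 340255 and 265717 in the 4 hr libraries, against 39517, 891279 and 1198452 in the controls. Drs ran along with depth over the series (Spearman's rho 0.67), and the part of depth in this difference was not tested. Def was 0, 13.1 and 35.5 CPM in the controls, 0, 8.22 and 5.21 CPM at 1 hr, 2.69, 4.6 and 0 CPM at 2 hr and 0, 10.6 and 3.52 CPM at 4 hr. Its fold changes were -2.01 ± 1.04, -2.96 ± 1.15 and -1.87 ± 1.14 on the log2 scale, and the 2 hr value passed the unadjusted rule (adjusted p = 0.686, edgeR). Control replicate 3, with 38 of the 49 control reads, carried a part of this difference: without it the 2 hr value was -1.99 ± 1.33 (adjusted p = 0.983, edgeR), of the same sign. Without the libraries that stand apart, which leaves the shallow control with 0 reads of Def, the values turned to 3.65, 3.39 and 3.223 at 1, 2 and 4 hr. The lowest control was 0 in the shallow library, so that no injured group was below all controls. The adjusted rule called 0% of genes at each time and the unadjusted rule 3.21, 5.48 and 18.6% of genes at 1, 2 and 4 hr, against 0, 1 and 0 of the 3 members. Without the shallow control the adjusted rule called 558 genes at 4 hr, none of them a member.

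In w1118 females Drs and Mtk stood highest in a single brain at 1 hr, and Def stood highest in a single control brain. Drs was 342, 512 and 438 CPM in the controls, 505, 760 and 372 CPM at 1 hr, 407, 564 and 680 CPM at 2 hr and 334, 462 and 424 CPM at 4 hr. Mtk was 164, 204 and 223 CPM in the controls, 201, 550 and 154 CPM at 1 hr, 195, 156 and 237 CPM at 2 hr and 277, 294 and 176 CPM at 4 hr. The brain with 760 CPM of Drs and 550 CPM of Mtk was 1 hr replicate 2. It moved the log2 fold change of Mtk to 0.61 ± 0.39 with all brains, against -0.16 ± 0.35 without it, and that of Drs to 0.33 ± 0.28 with all brains, against 0.01 ± 0.30 without it. At 2 and 4 hr Mtk had log2 fold changes of -0.0049 ± 0.39 and 0.34 ± 0.39.

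Def in w1118 females was 243, 9.36 and 3.35 CPM in the controls, 9.15, 20.4 and 3.85 CPM at 1 hr, 4.28, 21.9 and 24.5 CPM at 2 hr and 3.56, 16.9 and 9.12 CPM at 4 hr. Control replicate 1 held 131 reads of Def, which is 204 to 289 CPM by an exact Poisson interval of 95%, whereas the other controls held 6 and 2 reads. All injured brains lay between the lowest and the highest control. The fitted log2 fold changes were -2.88 ± 1.34 at 1 hr, -2.24 ± 1.27 at 2 hr and -2.98 ± 1.4 at 4 hr, of which those at 1 and 4 hr passed the unadjusted rule (adjusted p = 1 and 0.999, edgeR). Without control replicate 1 the same fits gave 0.82 ± 1.41, 1.44 ± 1.38 and 0.70 ± 1.45, so that the sign of all 3 values was set by that brain. By the adjusted rule 0% of 5477 genes were called at each time, and by the unadjusted rule 0.749, 5.4 and 1.15% of genes at 1, 2 and 4 hr, against 1, 0 and 1 of the 3 members.

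In w1118 males Mtk at 2 hr did not overlap the controls, whereas Drs and Def overlapped theirs at every time. Mtk was 177, 135 and 191 CPM in the controls, 191, 71.2 and 195 CPM at 1 hr, 209, 225 and 208 CPM at 2 hr and 187, 253 and 202 CPM at 4 hr. At 2 hr every injured brain was above every control, as for 3.33% of the 5821 genes, with a log2 fold change of 0.36 ± 0.39 (adjusted p = 1, edgeR). Drs was 378, 400 and 496 CPM in the controls, 387, 467 and 348 CPM at 1 hr, 507, 476 and 430 CPM at 2 hr and 829, 521 and 436 CPM at 4 hr. The brain of 829 CPM, the highest Drs of the series, was 4 hr replicate 1, and the log2 fold change at 4 hr was 0.50 ± 0.28 with it and 0.18 ± 0.29 without it. Def was 11.5, 34.1 and 6.88 CPM in the controls, 0, 122 and 13.9 CPM at 1 hr, 5.37, 8.87 and 4.65 CPM at 2 hr and 92.1, 2.98 and 9.28 CPM at 4 hr. A single brain held 144 of the 145 Def reads at 1 hr, and another held 36 of the 44 reads at 4 hr. The log2 fold change of Def was 1.58 ± 1.28 at 1 hr and 0.87 ± 1.29 at 4 hr, and it was -2.62 at 1 hr without replicate 2 and -1.62 at 4 hr without replicate 1. The adjusted rule called 0% of genes at each time and the unadjusted rule 1.7, 0.913 and 0.621% of genes at 1, 2 and 4 hr, against 0 of the 3 members.

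**Figure D3:**
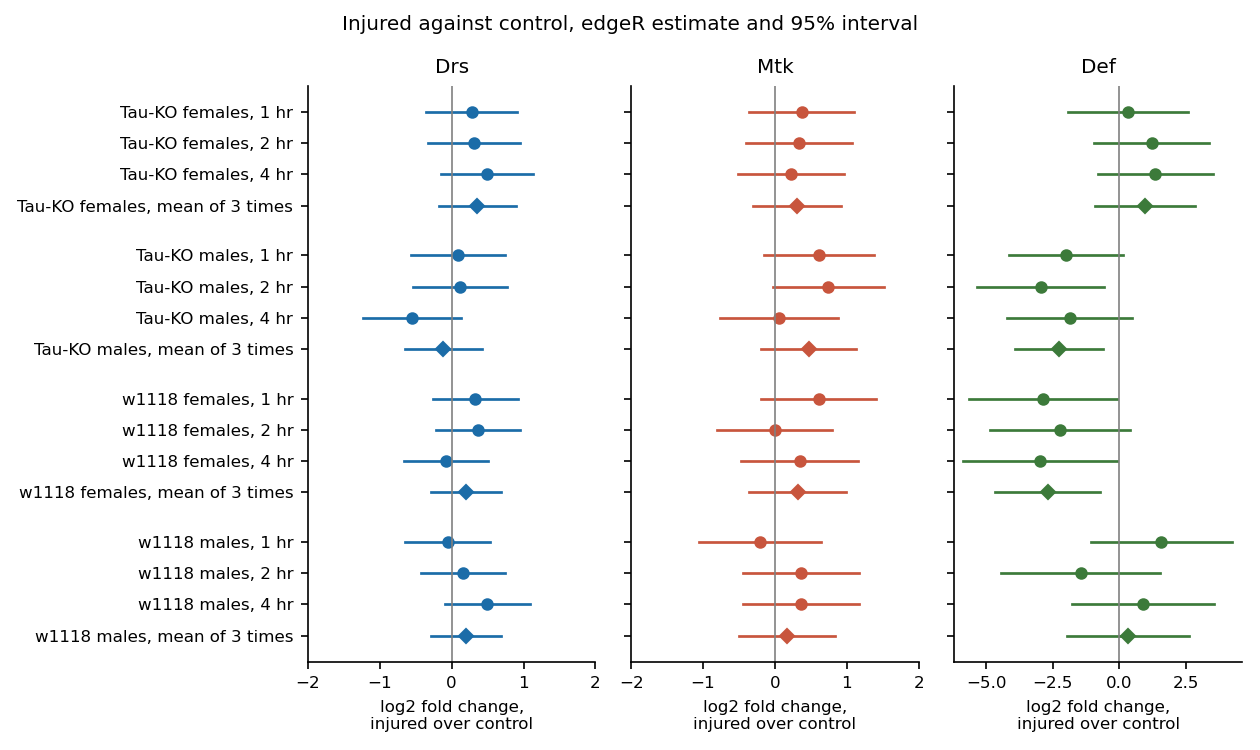
Log2 fold change of injured over control brains for Drs, Mtk and Def, by strain, sex and time, with 95% intervals from edgeR (circles for single times, diamonds for the mean of 1, 2 and 4 hr). All Drs and Mtk estimates with all libraries lie between -0.55 and 0.74, and Def estimates lie between -2.98 and 1.58 on a wider axis. The Def values are negative in Tau-KO males and w1118 females, and all of these but w1118 females at 2 hr turn positive without the libraries that stand apart. In Tau-KO males that leaves 1 shallow control with 0 reads of Def, which allows up to 57.6 CPM, so those signs rest on that library alone.

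Over the 12 comparisons with control, Drs had a positive log2 fold change in 9, with values of -0.55 to 0.50 and standard errors of 0.28 to 0.33. Of these positive values, those of w1118 females at 1 and 2 hr and of Tau-KO females at 1, 2 and 4 hr turned negative without the libraries that stand apart. In 9 of the 12 the 95% interval lay within a 2-fold change in either direction, and over all 12 the intervals reached from -1.23 to 1.12. Mtk had a positive value in 10 of 12, from -0.21 to 0.74, and its interval lay within 2-fold in 3 of 12. Without those libraries Mtk turned negative in w1118 females at 1 hr and in Tau-KO females at 1 and 4 hr. For Def 5 of 12 values were positive, from -2.98 to 1.58 with standard errors of 1.04 to 1.44, and in 0 of 12 did the interval lie within 2-fold. When the 16 group means were put in order, 0 of 15 neighbouring pairs differed by more than the larger of their SDs for any member. The ends of that order were w1118 male 4 hr (595 ± 207 CPM) and Tau-KO male 4 hr (270 ± 108 CPM, SD, n = 3 each) for Drs. For Mtk they were w1118 female 1 hr (302 ± 216 CPM) and Tau-KO male control (98.2 ± 35.4 CPM), and for Def w1118 female control (85.4 ± 137 CPM) and Tau-KO male 2 hr (2.43 ± 2.31 CPM).

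With the mean of the 3 injured groups set against the control, Mtk had log2 values of 0.17 to 0.47 in the 4 combinations of strain and sex, and the smallest adjusted p was 0.476 (edgeR). The Mtk value turned to -0.062 in w1118 females and -0.059 in Tau-KO females without the libraries that stand apart, and to -0.095 in Tau-KO females without replicate 2 of every group. Drs ranged from -0.11 to 0.36, and its value in Tau-KO females turned to -0.077 without replicate 2 of every group. Without the libraries that stand apart, Drs turned in each combination of strain and sex. Def had negative values in injured Tau-KO males, at -2.28 ± 0.80 (adjusted p = 0.237, edgeR), and in injured w1118 females, at -2.70 ± 0.94 (adjusted p = 1). It had values of 0.96 ± 0.92 in Tau-KO females and 0.33 ± 1.10 in w1118 males. Without the control brain of highest Def the value was -1.30 ± 1.06 in Tau-KO males and 0.99 ± 1.25 in w1118 females. The adjusted rule called 0, 0.0598, 0.0183 and 0% of genes in Tau-KO females, Tau-KO males, w1118 females and w1118 males, and the unadjusted rule 4.27, 9.49, 1.81 and 0.694%, against 0, 1, 1 and 0 of the 3 members.

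**Figure D4:**
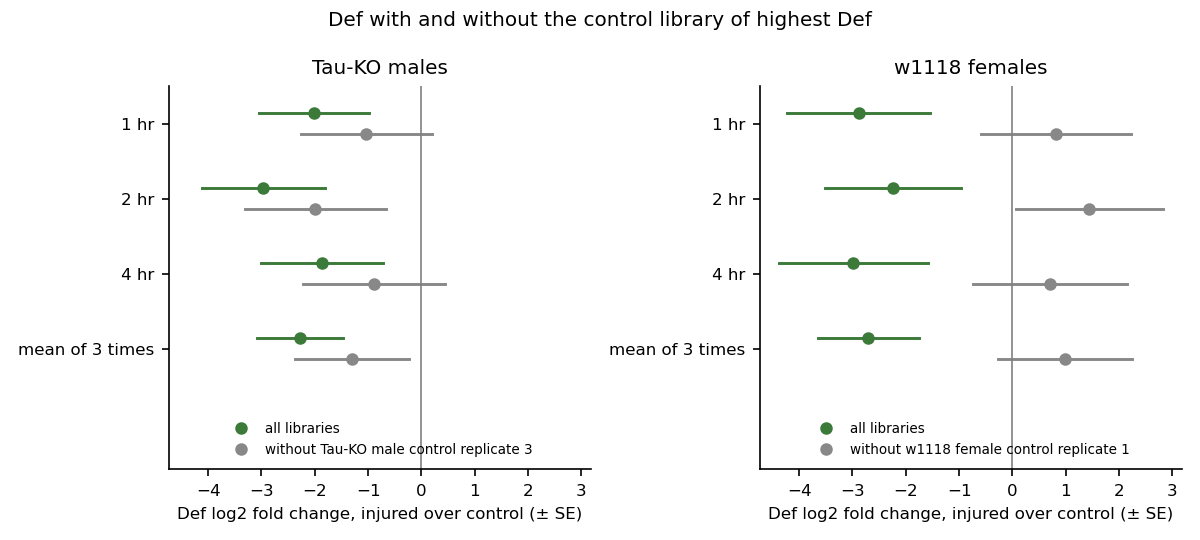
Def log2 fold change of injured over control brains (points, with SE) at 1, 2 and 4 hr and for their mean, in Tau-KO males and w1118 females, with all libraries (green) and without the control library of highest Def (grey). In w1118 females the mean is -2.70 with all libraries and 0.99 without control replicate 1, and in Tau-KO males it is -2.28 with all and -1.30 without control replicate 3.

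The study asked whether the sexes respond differently. The response of females minus that of males was 0.47 ± 0.37 for Drs and -0.16 ± 0.43 for Mtk in Tau-KO, and 0.0060 ± 0.33 for Drs and 0.14 ± 0.45 for Mtk in w1118, all on the log2 scale. For Def it was 3.24 ± 1.24 in Tau-KO (adjusted p = 0.161, edgeR) and -3.03 ± 1.51 in w1118 (adjusted p = 1). The Def values had opposite signs in the strains. They were 2.27 ± 1.4 in Tau-KO without male control replicate 3 and 0.66 in w1118 without female control replicate 1. The adjusted rule called 0.0399% of genes in Tau-KO and 0% in w1118, and the unadjusted rule 18.4 and 1.64%, against 1 and 0 of the 3 members.

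Between the sexes over all times, the log2 difference of Mtk in Tau-KO females over Tau-KO males was 0.46 ± 0.18 (adjusted p = 1, edgeR), which was under the fold limit and did not pass the adjusted test. It was 68.2 to 229 CPM in the 12 female libraries (median 205 CPM) and 45.1 to 207 CPM in the 12 male ones (median 155 CPM), with overlap. In w1118 Mtk had medians of 203 CPM in females and 193 CPM in males and a log2 difference of 0.34 ± 0.20. Drs differed between females and males by 0.29 ± 0.16 in Tau-KO and by 0.03 ± 0.14 in w1118. Def differed by 0.56 ± 0.55 in Tau-KO and by -0.04 ± 0.70 in w1118. The adjusted rule called 0% of genes in both strains and the unadjusted rule 0.897% in Tau-KO and 0.31% in w1118, against 0 of the 3 members.

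Between the strains, Drs in males labelled Tau-KO over w1118 males had a log2 fold change of -0.35 ± 0.15 (adjusted p = 0.872, edgeR), which did not pass the adjusted test. Drs was 154 to 528 CPM in the 12 Tau-KO male libraries (median 378 CPM) and 348 to 829 CPM in the 12 w1118 male libraries (median 452 CPM). Mtk had log2 fold changes of -0.37 ± 0.20 in males and -0.25 ± 0.19 in females, and Drs one of -0.09 ± 0.15 in females. Def was 0 to 35.5 CPM in Tau-KO males (median 4.06 CPM) and 0 to 122 CPM in w1118 males (median 9.07 CPM). Its log2 fold change was -1.70 ± 0.68 in males (adjusted p = 0.872) and -1.11 ± 0.62 in females. Without w1118 male 1 hr replicate 2 the male value was -0.67 ± 0.89, and without w1118 female control replicate 1 the female value was -0.19. The adjusted rule called 0% of 5821 genes in either sex, and the unadjusted rule 1.07% in females and 2.61% in males, against 0 and 1 of the 3 members.

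The high Def values belonged to few brains, in each of which Mtk was below its median. Def was over 30 CPM in 5 of 48 libraries, and all 5 stand apart. They were w1118 female control replicate 1 (243 CPM), w1118 male 1 hr replicate 2 (122 CPM), w1118 male 4 hr replicate 1 (92.1 CPM), Tau-KO male control replicate 3 (35.5 CPM) and w1118 male control replicate 2 (34.1 CPM). They include injured and control brains, and both strains and both sexes. Drs in these libraries was 342, 467, 829, 415 and 400 CPM, and Mtk was 164, 71.2, 187, 123 and 135 CPM, so that Mtk was below its median of 195 CPM in each, while Drs ranged up to its highest value of the series. In w1118 male 1 hr replicate 2 Def was above Mtk, as it was in w1118 female control replicate 1, and in none of the other 46 libraries.

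Markers of other tissues were read beside these brains. The summed level of 17 fat body genes (Yp1, apolpp, Lsp2 and others, of which Cyp4g1, fit, Fbp1, Fbp2, Lip3 and Lsp1gamma were at 0 in over 24 libraries) ranged from 3099 to 22577 CPM over the series, with a median of 8191 CPM. In the 5 brains with Def over 30 CPM, in the order above, it was 3788, 3650, 3099, 4578 and 4975 CPM, which are ranks 3, 2, 1, 5 and 6 from the lowest. The library at rank 4, w1118 male 2 hr replicate 1, had 5.37 CPM of Def. The summed level of 12 hemocyte genes, of which He, NimC1 and srp were at 0 in over 24 libraries, was 580, 686, 842, 831 and 839 CPM in the same brains, against a median of 1076 CPM over all. The summed level of 13 digestive enzyme genes (of 15 listed, those with a count) reached its maximum of 11444 CPM in w1118 female control replicate 1, the brain of highest Def. Its median was 657 CPM, and it was 839, 527, 647 and 762 CPM in the other 4. The low sums were not particular to fat body. Over the 48 libraries Spearman's rho of Def was -0.48 with the fat body sum and -0.60 with the hemocyte sum. It was -0.51 with 10 neuron genes and -0.47 with 10 glia genes, against 0.06 with digestive enzyme and 0.16 with muscle genes. The fat body gene to went the other way, with its highest level (611 CPM, median 80.4 CPM) in w1118 male 1 hr replicate 2. The part of tissue makeup in the Def values was not tested.

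**Figure D5:**
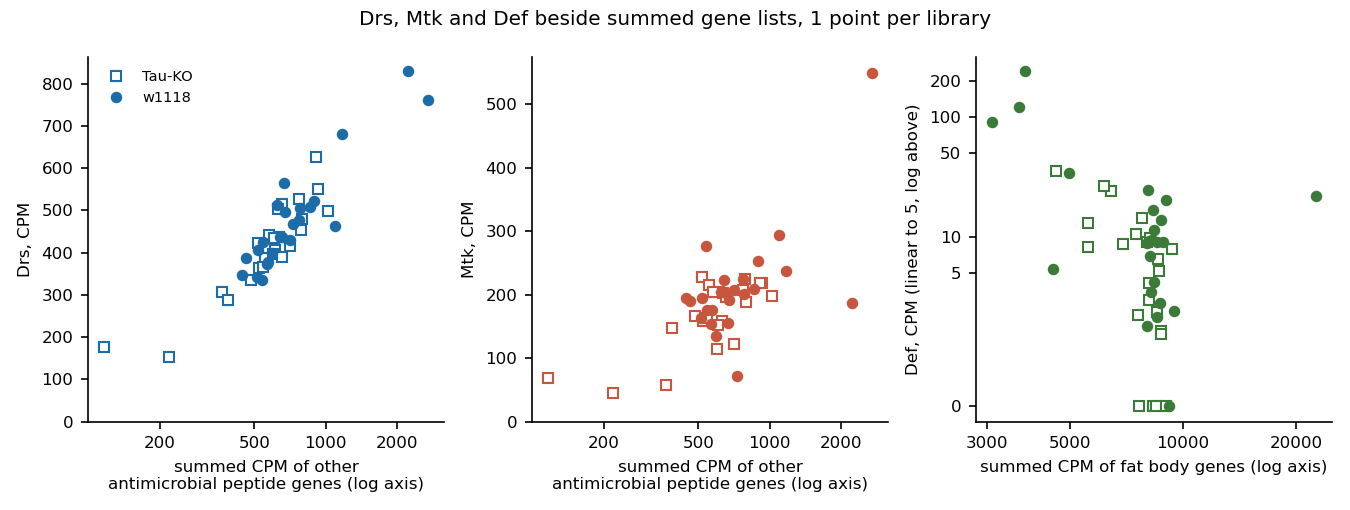
Level of Drs and Mtk against the summed CPM of other antimicrobial peptide genes, and of Def against the summed CPM of fat body genes (log x axes; Def axis linear to 5 CPM and logarithmic above), 1 point per library, open squares Tau-KO and filled circles w1118. Drs rises along the other peptide genes from 154 to 829 CPM, and the points of highest Def sit at the low end of the fat body sums. Def also ran against the sums of hemocyte, neuron and glia genes, which are not drawn.

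Over the 48 libraries Spearman's rho with the summed level of the other antimicrobial peptide genes was 0.87 for Drs, 0.53 for Mtk and 0.47 for Def, as a description of points that share library, depth and normalization. Among the members rho was 0.50 for Drs and Mtk, 0.40 for Drs and Def and -0.02 for Mtk and Def. Depth ran along with them, since rho with the counts assigned to genes was 0.67 for Drs, 0.16 for Mtk and 0.64 for Def. In the 32 libraries that do not stand apart it was 0.83 for Drs, 0.43 for Mtk and 0.50 for Def. The part of depth in these relations was not tested.

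The genes whose levels over the 48 libraries were most like those of a member were found by rho of log2 CPM among 5821 genes. For Drs they were IM3, a bomanin peptide gene under Toll (0.80), Ipp, an inositol polyphosphate phosphatase (0.80), Pcd, a pterin dehydratase (0.78), ND-18, a complex I subunit (0.78), and the serpin gene Spn43Ab (0.78), where the median gene had 0.074. For Mtk they were the attacin genes AttC (0.70) and AttB (0.68), the yolk protein gene Yp2 (0.65), the bomanin gene IM2 (0.65) and CG16820 (0.62), where the median gene had 0.055. For Def they were TotC, a stress-induced secreted peptide (0.72), POLDIP2 (0.71), CG2811 (0.70), Jwa (0.70) and the ribosomal protein gene RpL29 (0.70), where the median gene had 0.038. In the list for Drs Mtk came at rank 640 and Def at rank 1103. In the list for Mtk Drs came at rank 22 and Def at rank 3827. In that for Def Drs came at rank 972 and Mtk at rank 3185.

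The other peptide and pathway genes gave no call either. Of 20 other antimicrobial peptide genes 10 were tested in w1118 and 9 in Tau-KO, of 19 bomanin and IM peptide genes 14 in each, of 21 Toll genes 14 and 12, and of 22 Imd genes 12 and 12. In all 22 comparisons 0 of them passed the adjusted rule. The genes named next were chosen after their values were seen. By the unadjusted rule, AttC, CecA1 (a cecropin) and Dro (drosocin) were higher in w1118 females at 1 hr, 3 of 10 with a list median of 1.36 against 0.01 over all genes, where 0.749% of all genes passed in either direction. All of these included 1 hr replicate 2, the brain that had the highest Mtk. It was the highest library for 10 of 18 peptide genes, and without it 0 of 10 passed and the list median was 0.00011. In Tau-KO males at 4 hr Dro, Drsl4 and Drsl5, the last being drosomycin-like genes, were lower by the same rule (3 of 9), with log2 fold changes of -1.27, -4.18 and -2.05, in a comparison where 18.6% of all genes passed that rule. Drs in the same comparison had -0.55, and Drsl4 alone still passed without 4 hr replicate 2, the brain of lowest Drs and Mtk, at -3.39 ± 1.3 (adjusted p = 0.284, edgeR).

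The brains at the extremes of Drs and Mtk were also at the extremes of the other peptide genes, and the brain of highest Def was not: with 243 CPM of Def it had 515 CPM of other antimicrobial peptide genes, rank 8 from the lowest. The summed level of the other antimicrobial peptide genes was highest in w1118 female 1 hr replicate 2 (2697 CPM) and w1118 male 4 hr replicate 1 (2234 CPM), the brains with the most Mtk and the most Drs. It was lowest in Tau-KO female control replicate 2 (116 CPM) and Tau-KO male 4 hr replicate 2 (218 CPM), which were also the brains with the least Drs (177 and 154 CPM). The bomanin and IM genes together had 27745 CPM in w1118 female 1 hr replicate 2 and 17064 CPM in w1118 male 4 hr replicate 1, against a median of 19022 CPM, so that the brain with the most Mtk was high for both kinds of peptide and the brain with the most Drs was not.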

How the data were processed

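Libraries were made from single brains by QuantSeq 3′ mRNA sequencing. The authors aligned the reads to dm3 with STAR and deposited HTSeq counts per gene, not normalized; they also deposited sheets of their own edgeR comparisons (fold changes and p-values), which were not used. Rows that name no gene held 23.1 to 52.8% of each column and were left out. Gene counts were 39517 to 1668925 per library.

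Counts were tested with edgeR 4.0.16 in R 4.3.3 (filterByExpr, TMM scaling, glmQLFit and glmQLFTest), with 1 fit for each strain and 1 over all 48 libraries for the strains. P-values were adjusted by Benjamini-Hochberg over all genes of a fit. DESeq2 1.42.0, its size factors, no filter, a replicate block and left-out libraries were alternatives. The code was tested on simulated data. Named genes were the 3 members, the 5 genes most alike each member by Spearman's rho, and genes of the lists past the adjusted rule, of which there were 0. List genes named for passing the unadjusted rule, tissue markers named as mostly at 0 and single libraries were chosen after their values were seen. The members and lists were chosen with earlier results of these data known. The paper speaks of 3 biological replicates per condition. It also describes flies struck together in a vial and the brains of a condition exposed in a dish. Nothing states that the brains of a group came from separate cultures, vials or dishes, so p-values measure the spread between these samples. Where a group shared a vial or dish, injury and that vial or dish cannot be told apart. Gene positions are from BDGP6.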

Additional observations from a re-analysis of the deposited data

Results flagged for a closer look

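At 4 hr, some responses of Drs and Def lay on opposite sides of the control in different groups, with every injured brain of one group above its control mean and every injured brain of the other below it. The values are differences of the log2 ratio of mean CPM in injured over control brains, and the difference at this single time was not tested. Such cases were sought for each member at 1, 2 and 4 hr, between the sexes of a strain and between the strains of a sex. Only 4 hr gave any, and the share of all genes with this pattern was not counted. In Tau-KO males at 4 hr 18.6% of all genes passed the unadjusted rule. For Drs the response of Tau-KO females minus that of Tau-KO males was 0.96, and the response of Tau-KO males minus that of w1118 males was -0.96. For Def the response of Tau-KO females minus that of Tau-KO males was 3.27, and the response of Tau-KO females minus that of w1118 females was 4.6. Single libraries that carry much of these values are Tau-KO male 4 hr replicate 2 and Tau-KO female control replicate 2 for Drs, w1118 male 4 hr replicate 1 for Drs, and w1118 female control replicate 1 and Tau-KO male control replicate 3 for Def. Groups of 3 brains are too small for a test of a single outlying sample. The Tau-KO male 4 hr libraries held 134970, 340255 and 265717 counts, and Drs ran along with depth over the series (Spearman's rho 0.67). The part of depth in these values was not tested.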

How the results depend on the processing

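Each member had 22 results and 246 values under alternatives. Drs kept its direction and its side of the threshold in 214 and reversed in 32, Mtk in 219 and 27, and Def in 214 and 30, and Def went past the threshold in 2 more. All values here are log2 fold changes. With no filter on low counts, Def in w1118 females (mean of 1, 2 and 4 hr) was -2.66 with an adjusted p of 0.0366 (edgeR; range over alternatives 0.0366 to 1). With DESeq2's size factors in edgeR, the Drs response in w1118 females against males was -0.0035, and Mtk was 0.048 in w1118 females at 2 hr and -0.0091 in Tau-KO males at 4 hr. With the DESeq2 test the same values were -0.0031, 0.047 and -0.019. Without libraries under 100000 counts, Drs was 0.022 in w1118 males at 1 hr and -0.020 for the w1118 response, and Mtk was -0.065 in Tau-KO males at 4 hr.

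The replicate numbers pair no samples by the labels, and the group of w1118 males at 1 hr was alone in having every correlation of same-numbered deviations above 0.1 (0.457, 0.663 and 0.2). With the replicate block, Def in w1118 females against males was 0.052 and Mtk in w1118 females at 2 hr was 0.0023, and the block changed no other call or direction of a member. Def then passed the unadjusted rule in 4 of 22 comparisons, against 7 as reported and 10 with no filter.

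Without the libraries that stand apart, which leaves 1 shallow Tau-KO male control with 0 counts of Def, Drs was -0.13 and -0.23 in w1118 females at 1 and 2 hr, -0.26, -0.067 and -0.0023 in Tau-KO females at 1, 2 and 4 hr and 0.0030 in Tau-KO males at 4 hr. The Drs means over times were -0.19 in w1118 females, -0.0072 in w1118 males, -0.11 in Tau-KO females and 0.21 in Tau-KO males, and Drs was -0.18 and -0.33 for the w1118 and Tau-KO responses in females against males, -0.0094 for w1118 females against males and 0.042 for Tau-KO against w1118 females. Mtk was -0.27 in w1118 females and 0.069 in w1118 males at 1 hr, -0.014 and -0.21 in Tau-KO females at 1 and 4 hr, -0.062 and -0.059 for the means in w1118 and Tau-KO females and -0.27 for the w1118 response. Def was 0.048 and 0.75 in w1118 females at 1 and 4 hr, -1.80 and -0.72 in w1118 males at 1 and 4 hr, -0.24 in Tau-KO females at 1 hr and 3.65, 3.39 and 3.223 in Tau-KO males at 1, 2 and 4 hr. Its means were 0.077 in w1118 females, -0.97 in w1118 males and 3.42 in Tau-KO males, and Def was 1.05 and -3.30 for the w1118 and Tau-KO responses, 0.32 for w1118 females against males and 0.10 for Tau-KO against w1118 females. Under this setting Def passed the unadjusted rule in 0 of 22 comparisons and Mtk in 3.

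Leaving out 1 replicate at a time, Drs ranged from -0.21 to 0.064 in w1118 females at 4 hr, from -0.19 to 0.065 in w1118 males at 1 hr, from -0.047 to 0.59 and -0.0048 to 0.63 in Tau-KO females at 1 and 2 hr, and from -0.019 to 0.23 and -0.063 to 0.23 in Tau-KO males at 1 and 2 hr. It ranged from -0.077 to 0.76 for the mean in Tau-KO females, -0.21 to 0.17 for the w1118 response, -0.11 to 0.22 for w1118 females against males and -0.22 to 0.055 for Tau-KO against w1118 females. Mtk ranged from -0.16 to 0.92 and -0.16 to 0.14 in w1118 females at 1 and 2 hr, -0.51 to 0.21 in w1118 males at 1 hr, -0.0057 to 0.62 and -0.12 to 0.51 in Tau-KO females at 2 and 4 hr and -0.22 to 0.49 in Tau-KO males at 4 hr. It ranged from -0.095 to 0.64 for the mean in Tau-KO females, -0.019 to 0.30 for the w1118 response and -0.65 to 0.38 for the Tau-KO response. Def ranged from -3.65 to 0.82, -2.81 to 1.44 and -3.62 to 0.70 in w1118 females at 1, 2 and 4 hr, -2.62 to 2.55 in w1118 males at 1 hr and -1.62 to 1.84 at 4 hr. Its means ranged from -3.74 to 1.27 in w1118 females, -1.07 to 0.26 in w1118 males and -3.67 to -1.04 in Tau-KO males, where leaving out replicate 2 of every group gave an adjusted p of 0.0471 (edgeR; range over alternatives 0.0471 to 1). Def ranged from -3.70 to 1.78 for the w1118 response and -0.96 to 1.01 for w1118 females against males. Where a group was left with 1 library, it was assumed to vary like the other groups. The cause of these changes was not tested, and the 638 reads of Def in the series limit what can be said of it.

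Over all genes, calls at the unadjusted rule moved by over 1.5 times in 22 of 22 comparisons without the filter (17 to 931 calls as reported, 134 to 1483 without it), in 12 with DESeq2 (17 to 296, then 63 to 526) and in 17 without the libraries that stand apart (17 to 931, then 30 to 360). They did so in 3 without libraries under 100000 counts (161 to 476, then 324 to 814), and in 62 cases of leaving out a library or replicate number (17 to 931, then 6 to 1065). By the adjusted rule edgeR called 0 genes in Tau-KO males at 4 hr as reported, 558 without the shallow control library (Tau-KO male control replicate 1), 349 with no filter and 11 without 4 hr replicate 3, and DESeq2 called 138. For the Tau-KO response edgeR called 2 as reported, 358 without libraries under 100000 counts and 322 with no filter, and DESeq2 called 15.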
